A study of Mus musculus with 6 samples.

Results

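The transcripts described here are 34 genes of the Hippo pathway, chosen by symbol, out of 18720 gene rows measured in mouse liver. They comprise 18 genes of the pathway's core and 16 genes known as targets of the transcription factors at its end, the TEAD proteins. All 34 symbols were found, each listed once. The livers came from aged male C57BL/6 mice, 1 year old, that were all kept on a high-fat diet. The treated group received R159, a compound known here by its code name, and the control group received vehicle, both by intraperitoneal injection 2 times a week for 12 weeks. Each group had 3 libraries of polyadenylated RNA. The study's title places R159 on a non-canonical signalling arm of gp130, the receptor subunit shared by the interleukin-6 cytokine family, and a lean or untreated group was not analysed here. Whether every library is its own animal is not stated in the labels, and p-values here cover the spread among these libraries, part of which could be technical.

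The Hippo pathway limits organ size. Its MST kinases, held on the scaffold SAV1, phosphorylate and activate the LATS kinases together with the MOB1 adaptors, and LATS kinases phosphorylate the coactivators YAP and TAZ, which are then retained in the cytoplasm or degraded. When the kinases are less active, YAP and TAZ enter the nucleus and bind TEAD factors on DNA, which raises transcription of genes for growth, matrix and adhesion. In liver, loss of the kinases or of merlin leads to overgrowth and a bile duct-like state of hepatocytes. The pathway is set mainly by phosphorylation, which mRNA levels do not measure.

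Values are normalised estimated counts, the deposited gene counts divided by a factor per library, and folds are log2 differences of value + 1, R159 minus vehicle, tested with limma and adjusted over all 16594 genes with a mean of at least 10. Estimated depth was 51.26 to 55.74 M reads in R159 and 65.96 to 76.69 M in vehicle. Vehicle libraries correlated with each other at 0.979 to 0.986 across genes and R159 libraries at 0.939 to 0.949, and R159 replicate 2 stood farthest from vehicle (0.910 to 0.918). Transcripts encoded in mitochondria made up 8.42% to 13.59% of values in R159 and 5.01% to 7.43% in vehicle. Across 11149 coding genes the fold change ran against transcript length (Spearman's rank correlation -0.500, taken over genes, which are no replicates of a group). Because tissue RNA was measured in bulk, fewer cells of a type and less RNA per cell cannot be told apart.

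Both ends of the pathway held members at lower levels in R159, and no member was called higher. Of 33 tested members, 14 were called lower (42.4%), while 27.0% of all tested genes were called, 14.2% lower and 12.8% higher. In the core 9 of 18 were lower, including Yap1, Wwtr1, Tead1, Lats2, Stk4 and both Mob1 genes. Among the targets 5 of 15 tested were lower, namely Axl, Crim1, Nt5e, Asap1 and Myof, while Ccn1 and Ccn2, the targets most often used as a readout of YAP, were not called. Of all calls 52.6% were lower as deposited and 42.2% with upper quartile scaling. That scaling still called 8 core members and 5 targets lower, beside 1828 of 16609 genes tested in that way. The median log2 fold change was -0.59 in the core and -0.53 among the targets, and 0.00 over all features tested. With R159 replicate 2 left out, 7 core members and 3 targets were called lower, and with vehicle replicate 2 left out, 6 and 3. Those fits also called fewer of all genes lower, 1782 of 16506 and 923 of 16659, against 2354 of 16594 with all libraries. With the length trend removed from every library, 4 of 18 core members and 3 of 15 targets were called lower, against 8.20% lower and 9.93% higher of all genes tested in that way.

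**Figure D1:**
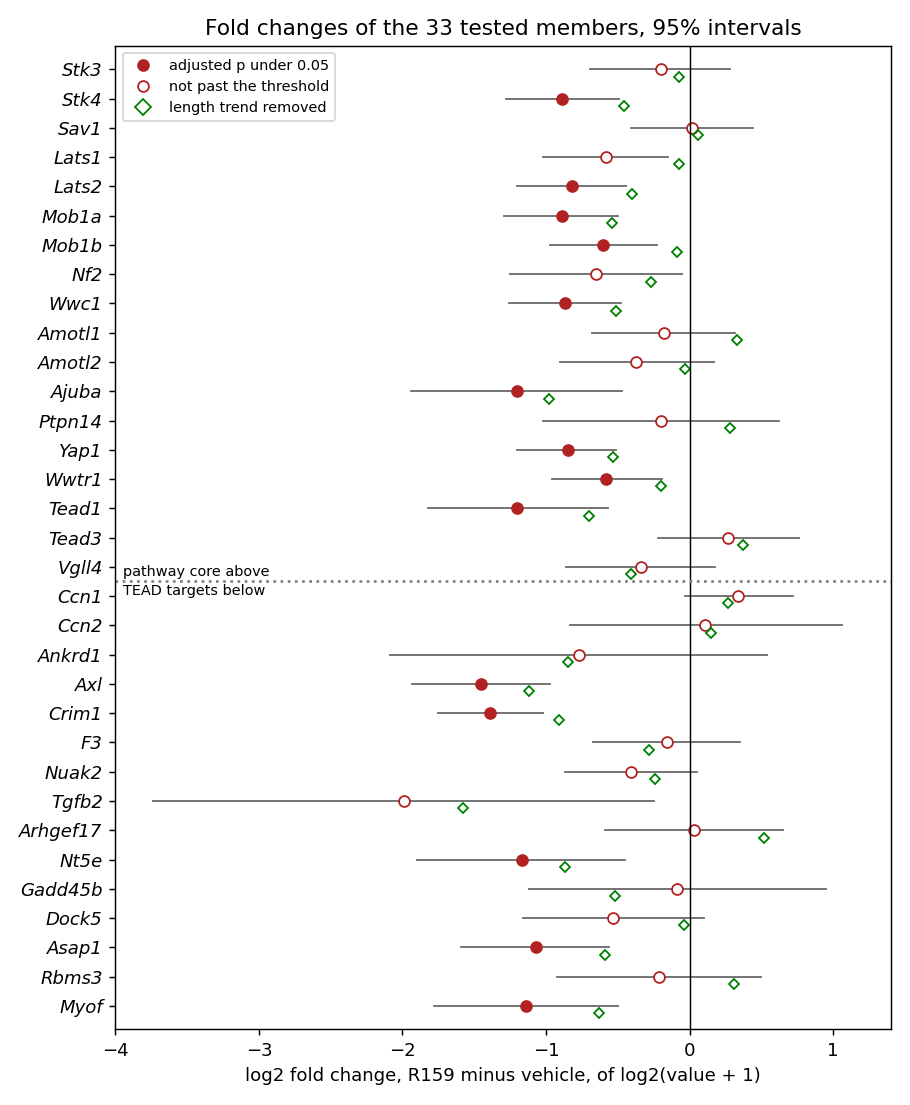
Log2 fold changes (R159 minus vehicle, of log2(value + 1), x axis) of the 33 tested members, with lines for limma's 95% intervals, filled circles for members past an adjusted p of 0.05 and green diamonds for the fold change after removal of the length trend. The 14 filled circles all lie left of 0, from -0.58 for Wwtr1 to -1.45 for Axl, and for each of them the diamond lies nearer to 0.

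YAP and TAZ, the coactivators on which the pathway acts, were both lower in R159. Yap1 (YAP) was 2198, 1999 and 2223 in the R159 libraries, given in order of replicate number here and below, and 3340.3, 4049 and 4274 in vehicle. Every R159 library thus lay below every vehicle library, at 55.0% of the vehicle mean (2139.9 ± 123 against 3888 ± 487, SD, n = 3 each; log2 fold change -0.85, SE 0.15, limma adjusted p = 0.00650). Wwtr1 (TAZ) was 1222, 1410.5 and 990.3 with R159 and 1863, 1813 and 1675 with vehicle. These groups did not overlap either (-0.58, SE 0.17, limma adjusted p = 0.0375). The call for Yap1 held with each library left out and with the length trend removed (-0.53, adjusted p = 0.0206). The call for Wwtr1 was lost without R159 replicate 3 (adjusted p = 0.0905) and without vehicle replicates 1, 2 or 3 (0.117, 0.132 and 0.0837). It was also lost with upper quartile scaling (-0.49, adjusted p = 0.0581), with a replicate block (0.0542) and with the length trend removed (-0.20, 0.468).

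Of the TEAD factors, which bring YAP and TAZ to DNA, Tead1 was called lower and Tead3 was not. Tead1 was 545, 407 and 248 with R159, and 909, 803 and 907 with vehicle. All R159 libraries were lower, R159 replicate 3 most of all, and the mean was 45.8% of vehicle (-1.20, SE 0.27, limma adjusted p = 0.0149). Its transcript is long, 9964 nt, and its call was lost with the length trend removed (-0.70, adjusted p = 0.0776) and without vehicle replicate 3 (-1.17, adjusted p = 0.0530). Tead3 was 1159.6, 710.3 and 713 with R159 and 691, 676 and 718 with vehicle. The mean was raised by R159 replicate 1, the groups overlapped, and the fold change had a 95% interval of -0.22 to 0.76 (adjusted p = 0.380). Vgll4, a cofactor that competes with YAP for TEAD, was 1183, 656 and 1025 with R159 and 1125, 1089.8 and 1319.6 with vehicle, again overlapping (-0.34, adjusted p = 0.292). Per kilobase of transcript, Yap1 stood at 932 in vehicle and 513 in R159, Vgll4 at 581 and 471, Wwtr1 at 379.7 and 257, Tead3 at 251 and 310.3, and Tead1 at 87.6 and 40.1. On this per-length scale Tead1 was the lowest of the 5 genes in both groups.

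The kinase cassette was lower at 4 of its 7 genes (57.1%), beside 14.2% lower of all tested genes. With the length trend removed 2 of 7 were lower, beside 8.20% of all genes. Stk4, which encodes the kinase MST1, was 761, 574 and 681 with R159 and 1158, 1195 and 1357 with vehicle. The mean was 54.3% of vehicle with no overlap (672 ± 93.9 against 1237 ± 106; -0.89, SE 0.17, limma adjusted p = 0.00825). Stk3, the gene of the sister kinase MST2, was 345, 397 and 476 with R159 and 435, 405 and 561 with vehicle. These values overlapped, and the fold change of -0.20 had an interval of -0.69 to 0.28 (adjusted p = 0.508). Sav1, the scaffold of the MST kinases, was 902, 619 and 689 with R159 and 695, 730.2 and 729.9 with vehicle, with R159 libraries on both sides of the vehicle range (0.02, adjusted p = 0.954).

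Of the LATS kinases, which act on YAP directly, Lats2 was 561, 464 and 539 with R159 and 911, 862 and 995 with vehicle. The groups were far apart relative to their spread (-0.82, SE 0.17, limma adjusted p = 0.00969), and the call was lost with the length trend removed (-0.40, adjusted p = 0.0782). Lats1 was 1367, 968 and 949 with R159 and 1420.2, 1631 and 1826 with vehicle. Here too R159 lay below vehicle in every library, but replicate 1 lay close to it and the adjusted p was 0.0514 (-0.58, SE 0.19). The call for Lats1 turns on the setting, since it was past the threshold without R159 replicate 1 (-0.75, adjusted p = 0.0115) with TMM scaling (-0.60, adjusted p = 0.0439) and with a filter at a mean of 50 (-0.58, 0.0453), but at -0.07 with the length trend removed (0.752). It was not called with any other library left out (adjusted p from 0.0765 to 0.167). Lats2 is itself a known TEAD target that feeds back on YAP.

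The MOB1 adaptors, which LATS kinases need for full activity, were both lower. Mob1a was 1311, 972 and 1006 with R159 and 1894, 1896 and 2288 with vehicle (-0.89, SE 0.18, limma adjusted p = 0.00838), and Mob1b was 1437, 1241 and 1185 with R159 and 1714, 1953 and 2201 with vehicle (-0.60, SE 0.16, adjusted p = 0.0267). Neither gene's groups overlapped. Mob1a kept its call with the length trend removed (-0.54, adjusted p = 0.0272), whereas Mob1b, with a transcript of 8967 nt, was then at -0.09 (adjusted p = 0.690). The call for Mob1b was also lost without R159 replicate 2 or 3 (adjusted p = 0.0552 and 0.0663), without vehicle replicate 2 or 3 (0.104 and 0.107) and with a replicate block (0.0579). The products of these genes are close paralogues, and how the authors' counting treated reads shared by similar genes is not given in the sources used here.

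Among the regulators above the kinases, 2 of 6 were lower (33.3%). Beside this, 14.2% of all tested genes were lower, and 24.9% of coding genes between the members' length quartiles (2914 to 7094 nt). With the length trend removed 1 of 6 was lower, beside 8.20% of all genes. Wwc1, which encodes the scaffold KIBRA that works with merlin, stood at 1444 per kilobase in vehicle, the highest of the members there, and at 792 in R159, where Ccn1 was higher (916). Its values were 4233, 3198 and 3329.9 in R159 and 5755, 6514 and 7355 in vehicle. R159 lay at 54.8% of the vehicle mean without overlap (-0.87, SE 0.17, limma adjusted p = 0.00832; -0.51, adjusted p = 0.0256 with the length trend removed). Ajuba, a LIM protein that inhibits LATS, was 173, 252 and 267 with R159 and 739, 601 and 323 with vehicle. The groups did not overlap, but vehicle replicate 3 lay near R159 (-1.20, SE 0.33, limma adjusted p = 0.0262), and the call was lost with the length trend removed (-0.98, adjusted p = 0.0766). It was lost as well without R159 replicate 1 or 2 (adjusted p = 0.0585 and 0.0511) and without vehicle replicate 1 or 2 (0.0955 and 0.0927).

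Nf2, the gene of merlin, was 1449, 680.1 and 1162 with R159 and 1494, 1574 and 1889 with vehicle. R159 replicate 1 came within reach of the vehicle range, and the fold change of -0.65 was not called (adjusted p = 0.0954), although it was without R159 replicate 1 (-0.89, adjusted p = 0.0294). Without R159 replicate 2 it was -0.34 (adjusted p = 0.203), and with the length trend removed -0.27 (0.410). The angiomotins, which hold YAP at junctions, were not called. Amotl1 was at 401 ± 69.0 in R159 and 455 ± 83.0 in vehicle (-0.18, interval -0.68 to 0.32, adjusted p = 0.566), and Amotl2 at 1441 ± 361 and 1848 ± 423 (-0.37, interval -0.90 to 0.17, adjusted p = 0.269). Ptpn14, a phosphatase that binds YAP, was 146, 59.0 and 113 with R159 and 112, 110.1 and 119.8 with vehicle. Its groups overlapped, with R159 replicate 2 far below the other libraries, and the sign of the fold change turned without that library (-0.20 with all libraries, 0.17 without R159 replicate 2).

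**Figure D2:**
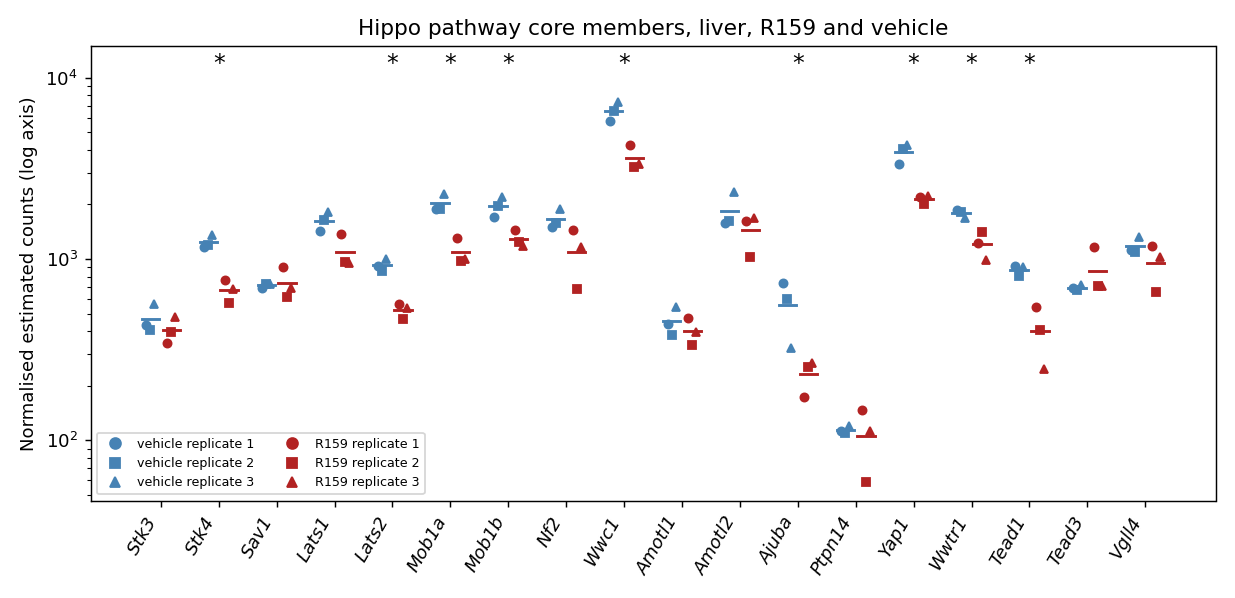
Normalised estimated counts (log axis) of the 18 pathway core members in every library, vehicle in blue and R159 in red, with a shape for each replicate, a bar for each group mean and an asterisk over members past an adjusted p of 0.05. Stk4, Lats2, Mob1a, Wwc1 and Yap1 show separate clusters of 3 libraries each, while Sav1, Tead3 and Ptpn14 have R159 replicate 1 above all vehicle libraries.

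Ratios of paralogues within a library do not depend on how libraries were scaled. The log2 ratio of Tead3 to Tead1 was 1.09, 0.80 and 1.52 with R159 and -0.40, -0.25 and -0.34 with vehicle. Tead1 thus gave more counts than Tead3 in every vehicle library and fewer in every R159 library, a difference of 1.46. The ratio of Stk4 to Stk3 was 1.14, 0.53 and 0.52 with R159 and 1.41, 1.56 and 1.27 with vehicle, lower in R159 without overlap (-0.68), and that of Mob1b to Mob1a was higher without overlap (0.29). For each of these 3 ratios an exact two-sided permutation test gave p = 0.1, the smallest that 3 libraries against 3 allow, and an adjusted p of 0.2 over the 6 ratios compared. The ratios of Wwtr1 to Yap1 (0.28, exact permutation p = 0.5), Lats2 to Lats1 (-0.24, p = 0.3) and Ccn2 to Ccn1 (-0.23, p = 0.8) overlapped between the groups. The paralogues differ in transcript length, with Tead1 at 9964 nt and Tead3 at 2775 nt, Stk4 at 5232 nt and Stk3 at 2914 nt, and Mob1b at 8967 nt and Mob1a at 4412 nt. In the first 2 of these pairs the gene with the longer transcript was lower relative to its partner, and in the Mob1 pair it was higher. The part of length in these ratios was not tested.

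The promoters of 26 members were matched by symbol in a RefSeq table of build GRCm38.p6, a build other than the mm39 listed in the submitters' processing notes, and the 250 bases before each start were searched for GGAATG, the core letters of the TEAD motif, on both strands. That table held no window for Stk3, Tead1, Ccn2, Nuak2, Arhgef17, Dock5, Asap1 and Fjx1, which were not searched. The hexamer was found in 9 of 16 core genes and 4 of 10 target genes with a promoter, and in 14.4% of all 27025 genes in the table (12.6% of 32851 windows). Many of the targets were first named from TEAD binding, so this count is a description. Printed here are the coactivator genes Yap1 and Wwtr1 and the called targets Axl and Crim1, which were lower in R159, and Ccn1 and Ankrd1, textbook TEAD targets that were not called. Each is written 5′ to 3′ on its gene's strand, ending at the last base before the start, with the hexamer or its reverse complement CATTCC in capitals.
Yap1 (chr9:8004597-8004846, minus strand): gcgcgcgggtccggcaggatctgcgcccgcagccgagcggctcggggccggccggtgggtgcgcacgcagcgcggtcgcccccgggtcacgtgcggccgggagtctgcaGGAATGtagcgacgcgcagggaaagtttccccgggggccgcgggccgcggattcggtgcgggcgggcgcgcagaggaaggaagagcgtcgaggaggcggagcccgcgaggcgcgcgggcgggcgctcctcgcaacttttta
Wwtr1 (chr3:57575911-57576160, minus strand): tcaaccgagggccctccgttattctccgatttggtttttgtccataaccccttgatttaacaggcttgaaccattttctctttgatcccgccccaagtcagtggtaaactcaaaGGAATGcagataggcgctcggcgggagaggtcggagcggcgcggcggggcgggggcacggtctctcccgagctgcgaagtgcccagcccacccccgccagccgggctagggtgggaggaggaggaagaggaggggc
Axl (chr7:25788734-25788983, minus strand): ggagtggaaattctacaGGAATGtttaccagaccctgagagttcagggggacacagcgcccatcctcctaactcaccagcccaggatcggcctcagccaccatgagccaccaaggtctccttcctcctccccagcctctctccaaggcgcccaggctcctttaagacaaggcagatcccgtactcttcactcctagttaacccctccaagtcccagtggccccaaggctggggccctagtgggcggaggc
Crim1 (chr17:78199998-78200247, plus strand): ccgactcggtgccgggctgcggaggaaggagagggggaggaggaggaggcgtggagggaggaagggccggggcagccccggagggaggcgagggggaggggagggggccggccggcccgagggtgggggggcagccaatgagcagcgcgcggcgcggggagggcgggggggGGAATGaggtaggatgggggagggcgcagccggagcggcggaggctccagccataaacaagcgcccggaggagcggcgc
Ccn1 (chr3:145649986-145650235, minus strand): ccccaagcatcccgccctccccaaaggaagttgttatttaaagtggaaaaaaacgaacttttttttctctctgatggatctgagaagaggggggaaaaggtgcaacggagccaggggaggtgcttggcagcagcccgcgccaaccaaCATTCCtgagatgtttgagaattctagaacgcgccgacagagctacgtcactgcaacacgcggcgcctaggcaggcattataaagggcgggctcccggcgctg
Ankrd1 (chr19:36119845-36120094, minus strand): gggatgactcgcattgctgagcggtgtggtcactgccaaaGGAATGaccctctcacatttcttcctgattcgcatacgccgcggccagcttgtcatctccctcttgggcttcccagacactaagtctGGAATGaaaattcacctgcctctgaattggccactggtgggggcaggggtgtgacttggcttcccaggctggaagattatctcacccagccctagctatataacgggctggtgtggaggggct
The match began 141 bases before the start in Yap1, 136 in Wwtr1, 233 in Axl, 79 in Crim1 and 103 in Ccn1, where it lies on the opposite strand. Ankrd1 held 2 matches, at 210 and 123 bases. The printed windows all hold the hexamer, in genes that were lower and in genes that were not called. Among the 10 targets with a window, the printed ones are the only ones with a match. No match was found for Nt5e, Myof, Stk4, Lats2, Mob1b or Wwc1, which were called lower. Windows of F3, Tgfb2, Gadd45b, Rbms3, Lats1, Nf2 and Amotl1, which were not called, held none either. Among other members, Ajuba, Mob1a, Sav1, Amotl2, Ptpn14, Tead3 and Vgll4 also held a match. The AP-1 heptamer TGAGTCA, often found near TEAD sites in enhancers, was in 1 member's window, that of F3, and in 5.16% of all genes.

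The targets that fell in R159 encode cell surface, trafficking and membrane repair proteins. Axl, a receptor tyrosine kinase for GAS6 that macrophages, stellate cells and endothelium also express, was 750.0, 682 and 971 with R159 and 2512, 2416 and 1671 with vehicle. No R159 library came near the lowest vehicle library, and the mean was 36.4% of vehicle (801 ± 151 against 2199.6 ± 461; -1.45, SE 0.21, limma adjusted p = 0.00402). Crim1, a transmembrane protein that binds BMP ligands, was 511, 539 and 461 with R159 and 1435, 1288 and 1235 with vehicle. Both groups were tight and far apart, which gave Crim1 the smallest p of all members (-1.39, SE 0.16, limma adjusted p = 0.00311). Its exons overlap those of Fez2 on the opposite strand, which itself had means of 2306 under R159 and 3181 under vehicle (limma adjusted p = 0.0761), and whether counting used strand is not given in the sources used here.

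Asap1, a GTPase-activating protein for ARF at focal adhesions, was 948, 510.4 and 751 with R159 and 1462, 1437 and 1618 with vehicle. R159 was lower in every library, replicate 2 the most (-1.07, SE 0.23, limma adjusted p = 0.0110). Nt5e, the surface enzyme CD73 that makes adenosine from AMP, was 573, 280.4 and 305 with R159 and 618, 794 and 1155 with vehicle. R159 replicate 1 lay just under the lowest vehicle library (-1.17, SE 0.32, limma adjusted p = 0.0269). Myof, a ferlin for membrane repair, was 179, 139 and 209.6 with R159 and 481, 439 and 269.8 with vehicle, where vehicle replicate 3 was the closest to R159 (-1.14, SE 0.28, limma adjusted p = 0.0192). Axl, Crim1 and Asap1 kept their calls with each library left out and with the length trend removed (-1.12, -0.91 and -0.59, adjusted p = 0.0126, 0.0124 and 0.0395). Nt5e and Myof did not keep theirs with the length trend removed (adjusted p = 0.0652 and 0.167). Nt5e lost its call without R159 replicate 2 or 3 (0.0808 and 0.0740) and without vehicle replicate 2 or 3 (0.0701 and 0.0991), and Myof without R159 replicate 2 (0.0522) and vehicle replicate 1 or 2 (0.0781 and 0.0830).

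The remaining 10 tested targets were not called. Ccn1 (CYR61), a secreted matricellular protein and immediate target of YAP, was 1599, 2167 and 1782 with R159 and 1331, 1512 and 1508 with vehicle. It was the only member whose R159 libraries all lay above vehicle, at 127% of the vehicle mean, with a log2 fold change of 0.34 and an interval of -0.03 to 0.72 (limma adjusted p = 0.152). Its relative Ccn2 (CTGF) was 326, 258 and 810.1 with R159 and 476, 258 and 438 with vehicle. R159 replicate 3 alone was high, and the sign of the fold change turned without it (0.11 with all libraries, -0.38 without R159 replicate 3). Ankrd1, a cardiac and stress-induced cofactor, was low in all libraries (26.0, 14.4 and 8.58 in R159 and 30.7, 19.7 and 29.3 in vehicle), and its groups overlapped (-0.77, interval -2.09 to 0.54, adjusted p = 0.344).

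Tgfb2, a ligand of the TGF-beta receptors, had the widest interval of any member. It was 40.1, 4.31 and 46.6 with R159 and 104, 86.7 and 70.4 with vehicle, so that the groups did not overlap but R159 replicate 2 stood far below the others (-1.99, interval -3.74 to -0.25, limma adjusted p = 0.0838). Its fold change was the largest of the members with all libraries but -0.97 without R159 replicate 2 (adjusted p = 0.0830). In that fit those of Crim1, Axl, Ajuba and Tead1 were larger (-1.44, -1.34, -1.28 and -1.24), and those of Myof and Nt5e slightly so (-0.99 and -0.98). Nuak2, a kinase of the AMPK family, was 464, 469 and 392 with R159 and 486, 575 and 719 with vehicle, again without overlap and without a call (-0.41, adjusted p = 0.161). Dock5, an exchange factor for RAC, was 1327, 574 and 783 with R159 and 1086, 1295 and 1278 with vehicle. R159 replicate 1 was the highest of all 6 libraries there, and the fold change of -0.53 was not called (adjusted p = 0.183). Without R159 replicate 1 Dock5 was called lower (-0.86, adjusted p = 0.0136), whereas it was -0.25 without R159 replicate 2 (0.469) and -0.04 with the length trend removed (0.900).

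The last 4 tested targets sat close to 0 on the log2 scale. F3 (tissue factor, which starts coagulation) was at 250.0 ± 31.3 in R159 and 281 ± 47.1 in vehicle (-0.16, interval -0.67 to 0.35). Arhgef17 was at 304 ± 90.3 and 294 ± 57.9 (0.03, interval -0.59 to 0.65). Gadd45b, a stress-induced regulator of growth arrest, was at 117 ± 33.2 and 135 ± 69.8 (-0.09, interval -1.12 to 0.95), and Rbms3, an RNA-binding protein, at 169 ± 41.7 and 199 ± 63.3 (-0.21, interval -0.92 to 0.50). All 4 overlapped between the groups, with limma adjusted p from 0.620 to 0.952. Fjx1, a secreted relative of a planar polarity kinase, was at 9.31 ± 7.52 in R159 and 7.29 ± 7.59 in vehicle and was left out by the filter on low values.

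**Figure D3:**
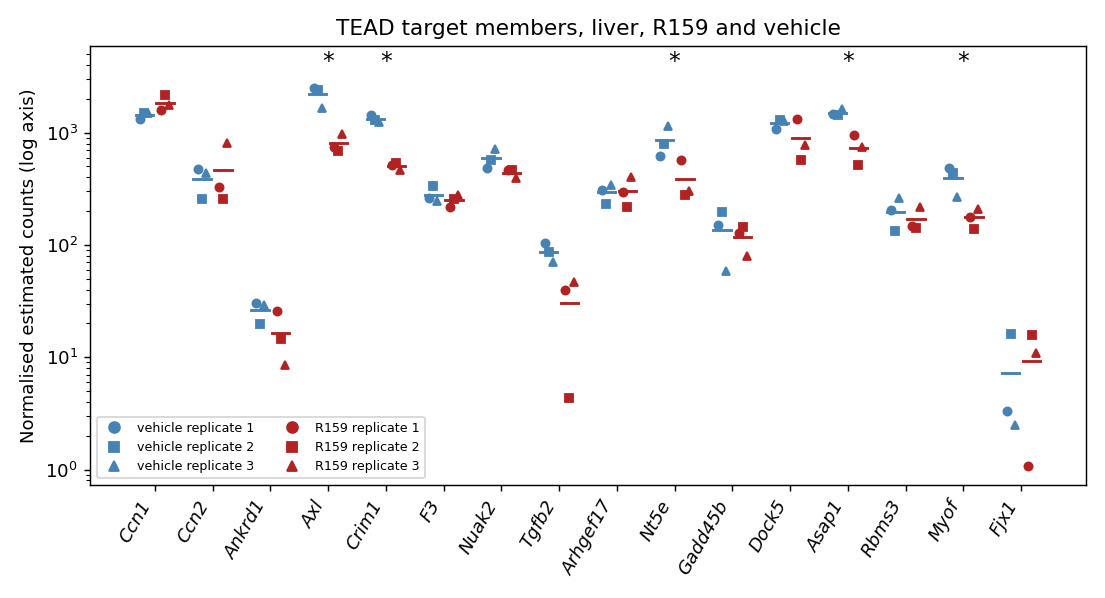
Normalised estimated counts (log axis) of the 16 TEAD target members in every library, drawn as for the core. Axl and Crim1 show the clearest gap between vehicle in blue and R159 in red, Ccn1 has R159 above vehicle, and Tgfb2 has a single low R159 library at 4.31.

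The members' R159 values were not evenly low across libraries. The median deviation of the 33 tested members from the vehicle mean was -0.38, -0.84 and -0.71 on the log2 scale in the R159 libraries, and -0.04, -0.04 and 0.14 in the vehicle libraries. Over all features tested these medians lay between -0.01 and 0.01. R159 replicate 2 was the lowest of the 6 libraries for 18 of 33 members (54.5%), as it was for 25.3% of all tested genes, and vehicle replicate 3 was the highest for 16 members (48.5%), as for 20.4% of all. In the core the same pair of libraries took 11 lowest and 12 highest places of 18. R159 replicate 2 also had the largest mitochondrial share, 13.59%, and 973 genes at 0, against 202 to 519 in the other libraries. The part of these traits in its low values was not tested. R159 replicate 1 was the closest of its group to vehicle, and without it 10 core members and 6 targets were called lower. That fit also called more of all genes lower, 2909 against 2354 with all libraries. Groups that did not overlap were counted for 18 members with R159 below and for 1 with R159 above, where 23.6% and 22.5% of all tested genes had such groups.

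**Figure D4:**
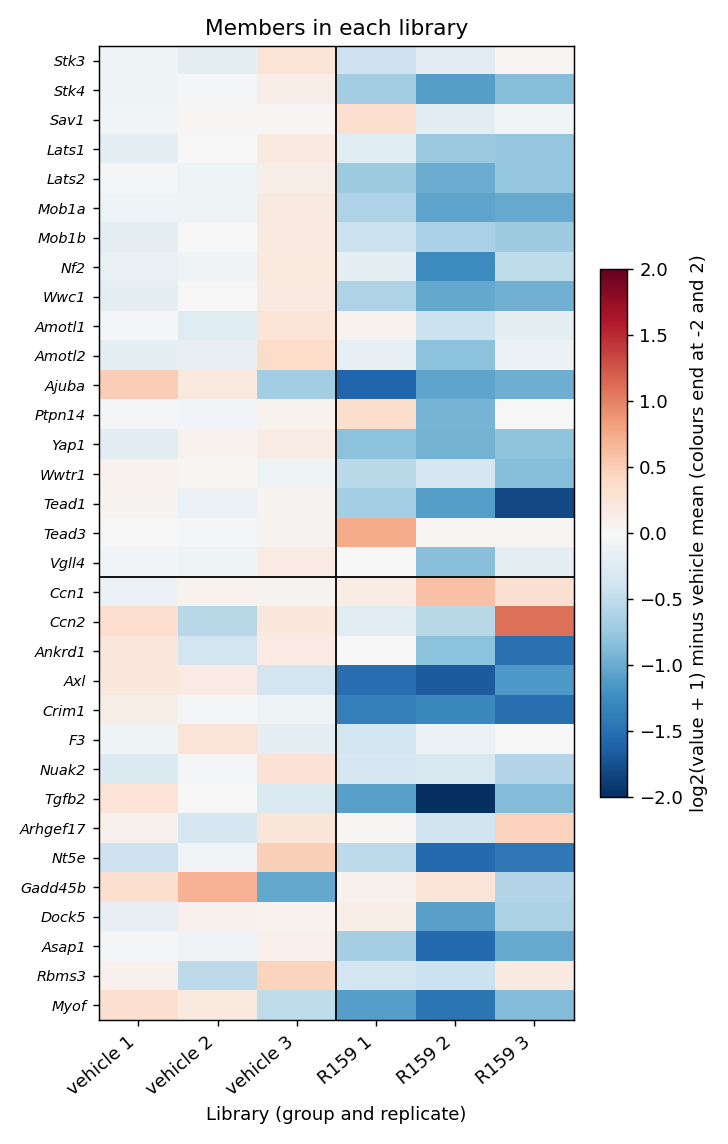
Deviation of each tested member (rows, core above the black line and targets below) from its vehicle mean in each library (columns), in log2 units from blue (lower) to red (higher). Blue dominates the R159 columns, most of all replicate 2 with a median of -0.84, while Ccn1 is red in all 3 R159 columns and Ccn2 is reddest in R159 replicate 3.

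Transcript length moved with these results. The tested members had a median length of 4531 nt, from 1284 nt for Gadd45b to 10746 nt for Ptpn14, against 3086 nt for all tested coding genes. Of 6247 coding genes between the members' quartiles of 2914 and 7094 nt, 24.9% were called lower and 5.06% higher, with a median log2 fold change of -0.33. The members' 42.4% lower and median of -0.58 can be read beside those values. After the length trend was removed the members' median was -0.28, with 25 of 33 fold changes below 0. The core and the targets differed in this. The core median went from -0.59 to -0.23, with 14 of 18 fold changes then below 0. The target median went from -0.53 to -0.52, with 11 of 15 below 0. The 7 members still called were Stk4, Mob1a, Wwc1, Yap1, Axl, Crim1 and Asap1, and they were called under every one of the 15 alternative fits. Long members were not uniformly low, since Arhgef17 (10190 nt), Ptpn14, Amotl1 (8957 nt) and Rbms3 (7908 nt) were near 0 and turned or stayed positive after removal of the trend (0.52, 0.28, 0.33 and 0.31).

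**Figure D5:**
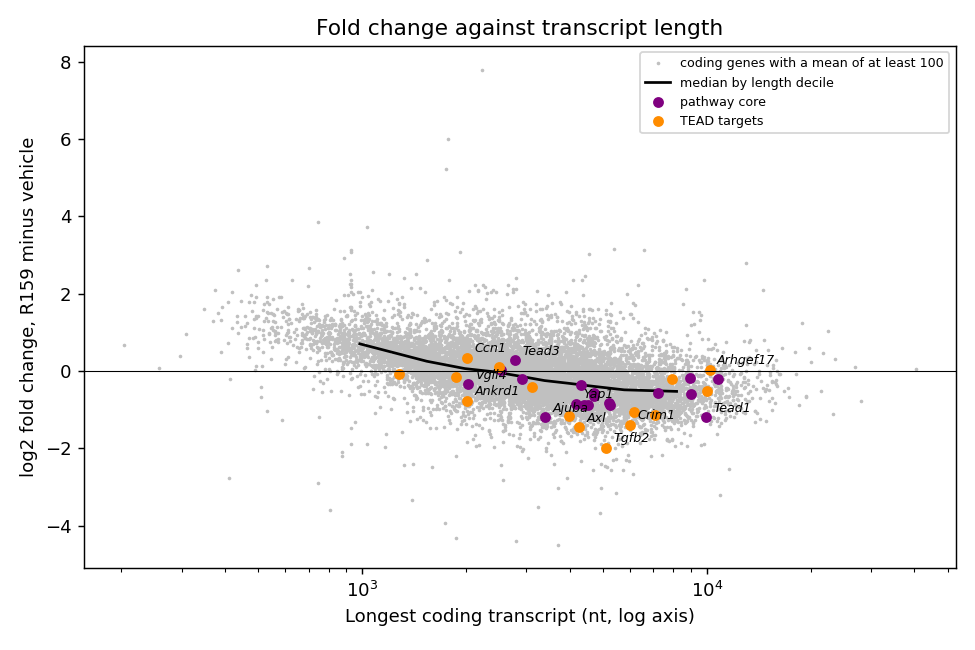
Log2 fold change (R159 minus vehicle) against the length of the longest coding transcript (nt, log axis) for coding genes with a mean of at least 100 in grey, their median by length decile as a black line, core members in purple and targets in orange. The line falls from left to right, and most members lie under it, with Axl, Crim1, Ajuba and Tgfb2 well below and Arhgef17, Tead3 and Ccn1 above.

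The rest of the pathway was read from a longer list. Of 71 other Hippo pathway genes 28 were lower (39.4%) and 3 higher, with a median log2 fold change of -0.44. Beside this, 14.2% of all tested genes and 24.9% of coding genes between the members' length quartiles were lower. With the length trend removed 11 of 70 were lower (15.7%) and 4 higher, with a median of -0.08, beside 8.20% lower of all genes. Among them, Wwc2, the paralogue of Wwc1, was 577, 490.3 and 456 with R159 and 1174, 1298 and 1276 with vehicle (-1.30, limma adjusted p = 0.00343). Fbxw11, a subunit of the ubiquitin ligase that degrades YAP, Ywhag, whose family of proteins retains phosphorylated YAP in the cytoplasm, and Fat1, a giant cadherin upstream of the kinases, fell with log2 fold changes of -1.28, -1.21 and -1.30. Each of these 4 stayed called with the length trend removed (adjusted p from 0.00426 to 0.0118). The 3 that rose were Map4k2, a kinase that can phosphorylate LATS (0.79, limma adjusted p = 0.0134), Stk25, a kinase of the STRIPAK complex (0.63, adjusted p = 0.0153), and Crb3, an apical polarity protein (0.67, adjusted p = 0.0376). With the length trend removed Map4k2 and Stk25 stayed called (1.16 and 0.97, adjusted p = 0.00403 and 0.00437) and Crb3 did not (0.18, 0.447). Crb3 was called in 1 of the 6 fits with a library left out, the one without R159 replicate 1 (0.00917), and in the others its adjusted p was 0.0779 to 0.146. Map4k2 lost its call without vehicle replicate 1 or 2 (0.0540 and 0.0546) and Stk25 without vehicle replicate 2 or 3 (0.0853 and 0.0555). The list had 14, 9 and 10 genes lower and 1, 0 and 1 higher without vehicle replicates 1, 2 and 3, fits that also called fewer of all genes (1252, 923 and 1117 lower).

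Of 45 tested targets of YAP, TAZ or TEAD outside the members, 13 were lower (28.9%) and 1 higher, with a median of -0.64, where 14.2% of all tested genes were lower. Of coding genes between the members' length quartiles 24.9% were lower, and this list had a median length of 3517 nt. Ccnd1, the G1 cyclin, was 1487, 1167 and 858 with R159 and 3613, 3894 and 3481 with vehicle (-1.68, limma adjusted p = 0.00312). Tgfbr2, a TGF-beta receptor, and Notch2, a Notch receptor of bile duct development, had log2 fold changes of -1.95 and -0.92 (adjusted p = 0.00391 and 0.0126). Cd44, a hyaluronan receptor, was 273, 399.7 and 384 with R159 and 752, 844 and 525 with vehicle (adjusted p = 0.0184). The gene that rose was Fgf2, a fibroblast growth factor, at 179, 128 and 272 in R159 and 78.4, 50.2 and 72.6 in vehicle (1.47, adjusted p = 0.0172). With the length trend removed 5 of 45 were lower (11.1%), a share near the 8.20% of all genes, and 1 was higher. Cd44 was not among them (-0.54, adjusted p = 0.216). The list's median was then -0.46, with 31 of 45 fold changes below 0, beside a median of 0.01 over all genes in that fit. Without vehicle replicates 1, 2 and 3 there were 4, 4 and 7 lower, and without R159 replicate 2 there were 7. In the same order these fits called 1252, 923, 1117 and 1782 of all genes lower, against 2354 with all libraries. Calls were lost for Cd44 without vehicle replicate 1 or 2 (0.0666 and 0.0857), for Fgf2 without vehicle replicate 2 (0.0710) and for Notch2 without vehicle replicate 3 (0.0524). The list had 0 higher without vehicle replicate 2 and 2 without vehicle replicate 3.

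Markers of the liver's cell types stood beside these results. Hepatocyte markers were abundant in every library, with Alb between 2700000.0 and 4790000.0 and the sum of 8 markers at 4559721 to 7428122 in R159 and 3771207 to 5539870.1 in vehicle. Of these, Tat was called higher and Apob and Hnf4a lower. The 8 Kupffer cell and macrophage markers summed to 11175 to 13608 in R159 and 14823 to 22088 in vehicle, without overlap, with Adgre1, Cd5l and Csf1r called lower (-1.77, -1.11 and -0.98) and none called higher. In the same list Marco and Timd4 lay above vehicle in every R159 library without a call (3.07 and 2.09, limma adjusted p = 0.0619 and 0.0872). Of 8 stellate cell and fibroblast markers, Reln, Col1a1 and Col3a1 were lower, and the sums overlapped (13439 to 28028 against 18323 to 32353). Endothelial sums overlapped too (7302 to 9274 against 7653 to 10592, Vwf lower of 8). The 7 cholangiocyte markers summed to 2066 to 4161 in R159 and 4166 to 12152 in vehicle, mostly Spp1, with Krt7 higher. Mesothelial markers summed to 555 to 1963 and 251 to 906, with Msln higher, and of 8 lymphocyte markers limma called 0. No marker was at 0 in all libraries. Of the 12 called markers, 4 kept their call with the length trend removed (Adgre1, Cd5l, Col1a1 and Krt7), and Tat, Apob, Hnf4a and Csf1r did not (adjusted p = 0.0561, 0.102, 0.166 and 0.0590). That fit also called Spp1 (-1.54, limma adjusted p = 0.0280) and Cd68 (-1.16, 0.0107) lower and Fcgr2b higher (0.54, 0.0481). With each library left out in turn 5 of the 12 kept their call (Adgre1, Cd5l, Csf1r, Col1a1 and Vwf). Tat was called in 1 of those 6 fits, the one without vehicle replicate 3, and Hnf4a in 2, those without R159 replicate 1 or vehicle replicate 1. The part of these cell types in the lower Axl, Crim1, Nt5e and Myof was not tested.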

How the data were processed

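Polyadenylated liver RNA in 6 libraries, 3 R159 and 3 vehicle by their titles, was sequenced as paired-end reads of 50 bp from stranded libraries, per the labels' protocols. Tools named in the submitters' processing notes are STAR 2.7.8a, DESeq2 with the version written 3.5, FastQC 0.11.9, cutadapt and R 4.2.3, and the build is mm39. Counter, annotation and strand setting: not given in the sources used here. The deposited values are a signal: estimated, partly fractional gene counts scaled by the authors with 1 factor per library. Of values under 200 reads, 67.8% to 76.1% were whole within 0.02 reads of a step per library, which gave the depth, and no count model was used.

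On the scale log2(value + 1), limma 3.58.1 was fitted (eBayes with trend, group only, R 4.3.3), with Benjamini-Hochberg adjustment over 16594 genes with a mean of at least 10 (2126 fell under it) and a threshold of 0.05. This scale understates changes of low genes. The members and lists were chosen with earlier results of these data known. The rule for named genes took all 34 members and, from 2 wider lists, the 4 genes of smallest p called in each direction without overlap. The length alternative took from every library's deviations a lowess fit (span 0.3) against the log2 length of the longest coding transcript in GENCODE M21, fitted on genes with a mean of at least 100, for 16065 tested genes. Other alternatives were pseudocounts of 0.5 and 8, other filters and scalings (TMM, upper quartile), no eBayes trend, a replicate block and leaving out each library. Paralogue ratios were tested with scipy 1.17.1. The fit was tested on simulated data. Figures used matplotlib 3.10.9 in Python 3.11.15.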

Additional observations from a re-analysis of the deposited data

How the results depend on the processing

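Of the 14 called members, 7 kept their call in each of 15 alternative fits (Stk4, Mob1a, Wwc1, Yap1, Axl, Crim1 and Asap1), and no fit called any member higher. Pseudocounts, filters and scalings left 8 to 10 core members and 5 targets lower. The same fits called 1828 to 2449 of all genes lower, out of 13279 to 18720 tested. With the length trend removed, 4 core members and 3 targets were lower, with 2913 genes called in all (1317 lower), 11 other pathway genes lower and 5 other targets lower, and Amotl1 (0.33), Ptpn14 (0.28) and Rbms3 (0.31) changed sign. Without the eBayes trend 1443 genes were lower, with 15 other pathway genes and 5 other targets, and Mob1b, Ajuba, Wwtr1 and Nt5e lost their calls (limma adjusted p = 0.0626, 0.0641, 0.0789 and 0.0704). The causes were not tested.

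With each library left out, calls ranged from 1841 to 5425 genes (923 to 2909 lower, 918 to 2516 higher), core members lower from 6 to 10, targets lower from 3 to 6, other pathway genes from 9 to 31 lower and 0 to 4 higher, and other targets from 4 to 13 lower and 0 to 2 higher. Log2 fold changes that changed sign in such fits ranged from -0.14 to 0.13 for Sav1, -0.48 to 0.17 for Ptpn14, -0.38 to 0.45 for Ccn2, -0.19 to 0.24 for Arhgef17, -0.60 to 0.26 for Gadd45b and -0.47 to 0.01 for Rbms3, none of them called. The Ccn2 to Ccn1 ratio difference ranged from -0.74 to 0.22. A replicate block gave 7 core members and 5 targets lower, 3945 of 16594 genes called in all (2033 lower) and 2 other targets higher. Deviations of same-numbered libraries correlated at -0.10, 0.03 and 0.11, and not every library correlated best with its own number, so the numbers were not taken as pairs. Counting error weighs most on the lowest members (Fjx1, Ankrd1 and Tgfb2).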
